A study of Rattus norvegicus with 20 samples.

Results

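The rat genes for mir-192, mir-194 and mir-215 were examined across tissues and serum. The members were chosen by name: the RefSeq features Mir192, Mir215, Mir194-1 and Mir194-2 and the miRBase precursor features rno-mir-192, rno-mir-194-1 and rno-mir-194-2. These are 7 of the 832 features of those 2 annotations. The RefSeq and precursor features of Mir192, Mir194-1 and Mir194-2 held the same read counts in every library, so the 7 features stand for 4 genes. Mir215 was quantified in the RefSeq annotation only, and the mature list held the 5p and 3p arms of miR-192 and miR-194.

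Small RNA was sequenced from untreated male Long Evans rats, an outbred strain, at postnatal day 35. Per the study's methods all tissues and serum came from the same 3 rats. Brain was a whole hemisphere from each rat, run individually, and serum had 3 libraries as well. The other 14 tissues (small intestine, large intestine, liver, pancreas, kidney, stomach, testes, thymus, spleen, fat, skin, heart, lung and skeletal muscle) were each a single library made from the pooled miRNA of those rats, so the spread between animals is not known for them. All groups were untreated, with no genetic or chemical manipulation.

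MicroRNAs are cut from hairpin precursors, and bases 2 to 8 of the mature strand, the seed, do most of the pairing to target mRNAs. miR-192 and miR-215 carry the same seed and are usually treated as a single family, while miR-194 has a different seed but is encoded beside each of them, so that every cluster holds a copy of mir-194. The clusters are best known from gut epithelium, hepatocytes and renal tubule cells, where HNF transcription factors drive them, and as miRNAs that p53 can raise. The mature strands are shown because the shared seed and the few differing bases decide which reads can be told apart. Capitals mark the seed, and the sequences are those of RefSeq for the GRCr8 assembly, in which all 4 genes were found.
miR-192-5p: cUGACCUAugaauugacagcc
miR-215: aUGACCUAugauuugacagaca
miR-194-5p: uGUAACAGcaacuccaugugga

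Counted from 1 at the 5′ end of miR-192-5p, miR-215 differed by C1A, A12U and C20A, and the other 18 of the 21 bases compared were shared. miR-194-5p was identical from both of its copies, so reads of that strand alone cannot be assigned to Mir194-1 or Mir194-2. The hairpins are shown to place the arms, which are in capitals. Mir194-2 lies at chr1:212994024-212994108 on the plus strand and ends 100 bases before Mir192, at chr1:212994209-212994318 on the same strand, between the genes Atg2a and Ehd1. Mir194-1, at chr13:99382716-99382798, ends 191 bases before Mir215, at chr13:99382990-99383086, both on the plus strand within the span of Iars2, the mitochondrial isoleucyl-tRNA synthetase gene. Whether that stretch is exon or intron was not determined here. The positions are those of GRCr8, whereas the reads had been aligned to the older assembly Rn5.
Mir194-2: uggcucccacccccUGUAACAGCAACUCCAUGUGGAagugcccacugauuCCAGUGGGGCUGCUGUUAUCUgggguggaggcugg
Mir192: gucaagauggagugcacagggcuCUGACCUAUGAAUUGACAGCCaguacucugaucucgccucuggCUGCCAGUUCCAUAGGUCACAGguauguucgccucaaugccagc
Mir194-1: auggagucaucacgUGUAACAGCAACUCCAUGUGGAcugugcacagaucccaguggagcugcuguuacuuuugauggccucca
Mir215: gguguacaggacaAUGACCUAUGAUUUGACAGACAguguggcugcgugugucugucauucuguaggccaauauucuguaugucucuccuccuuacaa

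In these alignments the Mir194-1 and Mir194-2 hairpins were identical at 70.8% of positions, and the Mir192 and Mir215 hairpins at 60.3%.

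Levels are given as RPM, the count scaled to a total of 1e6 reads, of the reads assigned to the same annotation in the same library. The precursor totals were 388275 to 1204552 reads in brain, 162080 to 3685761 in the pools and 7556 to 10862 in serum. A floor of 3 reads therefore stood at 276 to 397 RPM in serum but at 18.5 RPM or lower in every pool. Intervals on single libraries are Wilson 95% intervals, and they cover counting error only.

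The library labelled pancreas needs a caution before the tissue levels. It held 0 reads of mir-217 and of mir-216a and 1 read of mir-216b, all known from pancreatic acinar cells, and its islet miRNA mir-375 stood at 496 RPM against 753 RPM in liver. Its mir-122, the hepatocyte miRNA, stood at 14862 RPM against 14726 RPM in liver, while no other tissue exceeded 8.2 RPM. In contrast, mir-148a, also on the pancreatic marker list, was highest in the library labelled pancreas, at 103893 RPM. Liver was next, at 92294 RPM. Across precursors the log2 RPM of the 2 libraries correlated at r = 0.969, above the highest value of 0.950 among the 90 other pairs of pools. They were not the same library, since their counts differed by a chi-square of 45.4 per degree of freedom, against 19.1 for brain 1 and brain 2. It is called the library labelled pancreas below, and results that rest on it are given with and without it. For some other tissues a listed marker was highest where the label places it. These were mir-124 in brain, mir-208a in heart, mir-206 in skeletal muscle, mir-449a in testes, mir-205 in skin, mir-142 in thymus and mir-451 in spleen. The other leukocyte markers, mir-150, mir-223 and mir-155, were highest in spleen. In lung no listed marker was highest, and mir-34b, mir-34c and mir-449a were second there, after testes. No marker list was set up for kidney, fat or stomach, so those labels were not checked in this way.

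mir-192 was the most abundant member in most tissues, and it fell into a high and a low set of tissues. By the precursor total it stood at 324177 RPM in small intestine, with an interval of 322839 to 325519. It followed at 232017 RPM in the library labelled pancreas, 228719 in liver, 202869 in large intestine and 121188 in kidney. Stomach was between the sets, at 12905 RPM. The 3 brain libraries gave 2871, 3337 and 4427 RPM (3545 ± 799, SD, n = 3). Testes (3134), thymus (2882), spleen (2769), fat (2172), skin (1666), heart (1448), lung (1381) and skeletal muscle (1116 RPM) completed the order. These 9 tissues, brain included, were within 3.18-fold of each other, whereas kidney was 9.39-fold above stomach. Brain, testes, thymus and spleen could not be ordered beyond the brain spread and the counting intervals. In bulk tissue, more cells of a type and more miRNA per cell cannot be told apart.

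**Figure D1:**
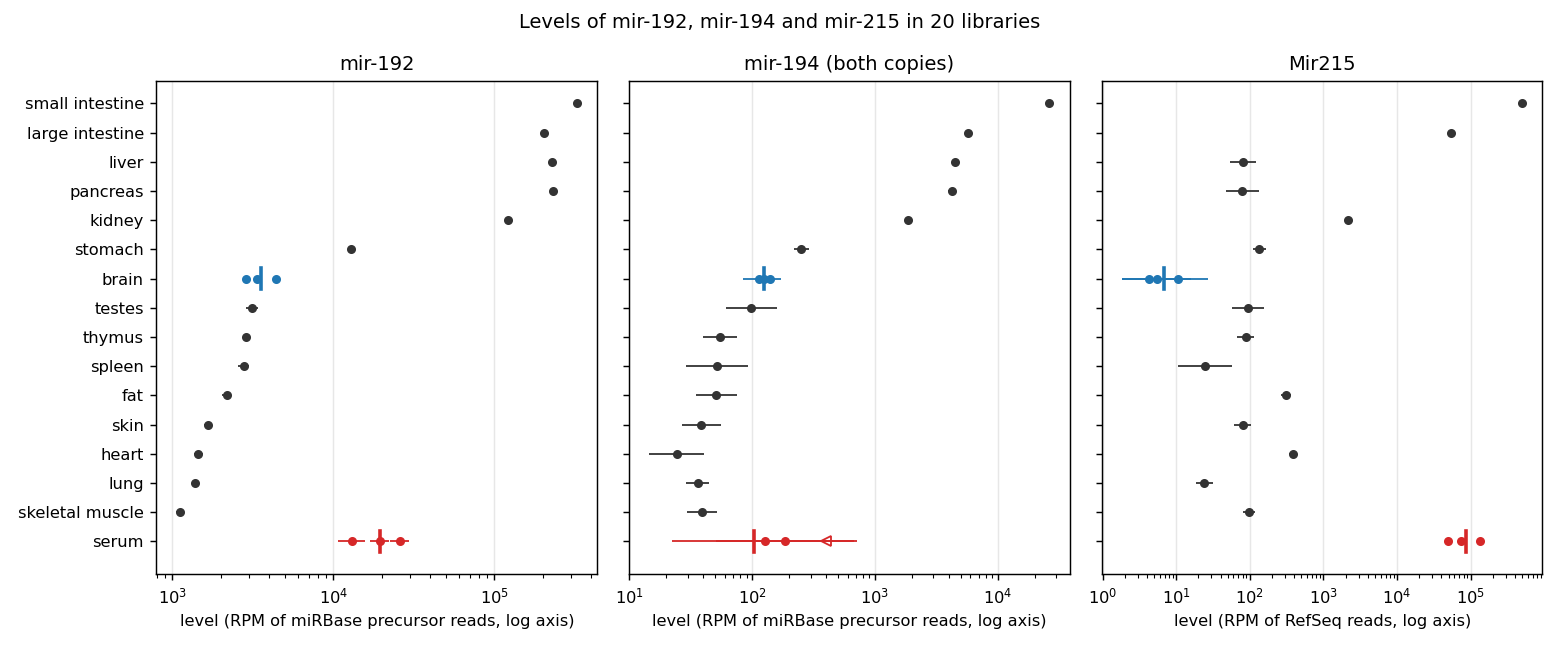
Level of mir-192, mir-194 (both copies summed) and Mir215 in each library, in RPM on log axes; each dot is a library, horizontal lines are Wilson 95% intervals, vertical ticks are means of the 3 brain (blue) or 3 serum (red) libraries, and the open triangle marks the floor of 3 reads for a serum library with 0 reads. mir-192 and mir-194 are high in the same 5 pools, Mir215 is low in liver at 79.7 RPM, and the 3 serum libraries lie between 49095 and 133676 RPM for Mir215.

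mir-192 was the top precursor by reads in liver, in small intestine and in the library labelled pancreas, while it ranked 2 in large intestine and 3 in kidney. In stomach it ranked 11 of 444. The precursor list does not hold Mir215, and in the RefSeq list of small intestine Mir215 ranked 1 and Mir192 ranked 2. A level of at least 8-fold above the 15-tissue median, with brain entered as the mean of its 3 libraries, was reached by 3 of the 3 precursor members in small intestine, large intestine, liver, kidney and the library labelled pancreas, and by 0 of 3 in stomach. Over all 295 precursors with at least 10 reads in at least 3 libraries, the same level was reached by 3.05% in small intestine, 4.07% in large intestine, 3.05% in liver, 3.73% in kidney, 3.39% in the library labelled pancreas and 1.02% in stomach. With TMM or DESeq2 size factors, mir-192 in stomach passed that level too, at 9.10-fold and 9.82-fold above the median, against 4.12-fold by the precursor total. Since these genes are known for this distribution and each pool was a single library, the order is a description and carries no test.

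A grouping as gut, liver and kidney miRNAs held for mir-192 and mir-194 apart from the library labelled pancreas. The lowest of small intestine, large intestine, liver and kidney was kidney, and it was 0.94 log2 units below the highest remaining tissue, the library labelled pancreas (a gap of -0.94). Without that library the gap was 3.23 log2 units over stomach. For mir-194 the gap was -1.18 with the library labelled pancreas and 2.89 without it.

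Which tissue led for mir-192 depended on the total used. Mir215 took 50.3% of the RefSeq reads of small intestine, 456246 of 906313, and the precursor list does not hold it, so the small intestine total was 468515 by precursors. Against the RefSeq total, mir-192 stood at 264580 RPM in the library labelled pancreas, 259909 in liver, 198125 in large intestine, 167582 in small intestine and 124139 in kidney. Adding the Mir215 reads to the precursor total gave 164239 RPM in small intestine, again the fourth. With TMM or DESeq2 size factors computed over precursors, small intestine came first. The same 5 libraries were the highest under all of these scalings.

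**Figure D2:**
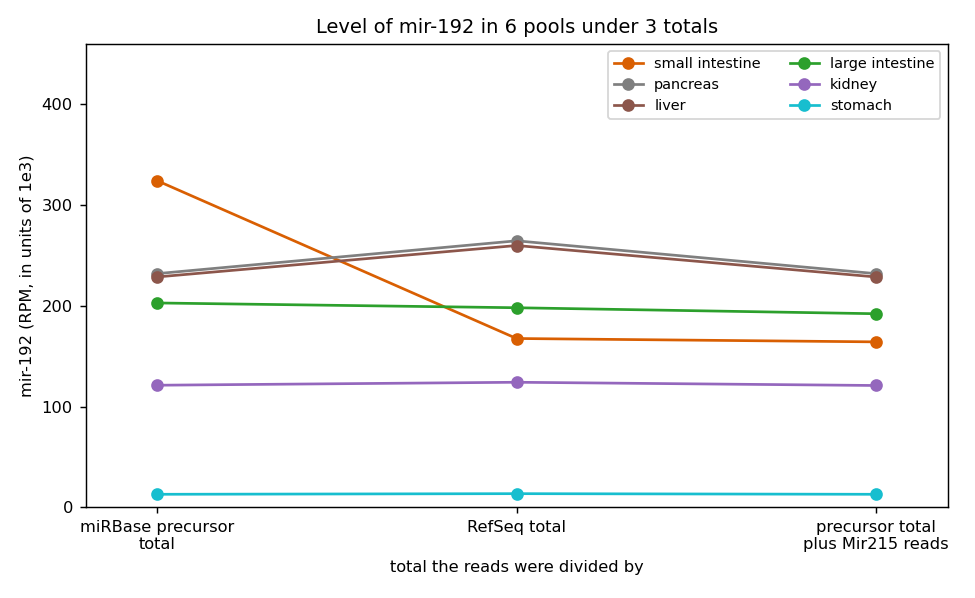
Level of mir-192 in 6 pools, in RPM (axis in units of 1e3), when its reads were divided by the precursor total, the RefSeq total or the precursor total plus Mir215 reads; each dot is a library and lines join the same pool. Small intestine moves from the first place (324177 RPM) to the fourth (167582 RPM and 164239 RPM) while kidney and stomach keep theirs.

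mir-194 followed mir-192 at a far lower level and was highest in small intestine. The sum of its copies stood at 26132 RPM in small intestine, 5772 in large intestine, 4473 in liver, 4238 in the library labelled pancreas and 1875 in kidney. Stomach held 252 RPM, and the 3 brain libraries held 113, 125 and 138 RPM (125 ± 12.6, SD, n = 3). The remaining 8 tissues ranged from 24.3 RPM in heart, where 14 reads were counted, to 98.7 RPM in testes, from 16 reads. Small intestine was thus 4.53-fold above large intestine by the precursor total, but 2.40-fold against the RefSeq total, which holds the Mir215 reads (13509 over 5637 RPM). By the precursor total, the counting intervals of liver (4250 to 4707) and the library labelled pancreas (3964 to 4532) overlapped.

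Within a library, the reads of mir-194 as a percentage of those of mir-192 need no scaling. The ratio was 8.06% in small intestine, 2.85% in large intestine, 1.96% in liver and 1.55% in kidney. The median over the 15 tissues was 2.31%, and the pooled brain value was 3.86%, with brain libraries between 2.56% and 4.34%. On the mature 5p arms alone the ratio in small intestine was 5.32%, still the highest of the tissues. In that library many mir-194 reads fell off the annotated mature arms, as given with the arm counts.

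The copies shared the reads almost evenly. Mir194-1 held 55.1% of the mir-194 reads in small intestine (54.2 to 56.0%) and 48.5% in large intestine (47.8 to 49.1%), and these intervals did not overlap. Liver stood at 45.5%, kidney at 47.4% and the library labelled pancreas at 47.5%, with overlapping intervals. Because the mature strand is common to both copies, reads of that strand cannot be told apart, and the copy values are uncertain. How the counting divided such reads was not tested.

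Mir215 had a distribution of its own, led by the intestine and without liver. It stood at 503409 RPM of RefSeq reads in small intestine, 54326 in large intestine and 2182 in kidney. Liver held 23 reads, or 79.7 RPM (53.1 to 120), and the library labelled pancreas held 14 reads, or 79.1 RPM. Heart (385 RPM), fat (311), stomach (135), skeletal muscle (97.9), testes (95.4), thymus (88.1) and skin (80.1) lay at or above liver, while spleen (24.4) and lung (24.1) lay below. The lowest tissue was brain, with 5, 3 and 4 reads in its 3 libraries, or 4.28, 5.42 and 10.6 RPM (6.76 ± 3.36, SD, n = 3). From stomach down to the library labelled pancreas, each tissue overlapped the next within its counting interval.

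Small intestine was 9.27-fold above large intestine, and large intestine was 24.9-fold above kidney. For Mir215 the gap between the lowest of the 4 named tissues, liver, and the highest other tissue, heart, was -2.26 log2 units, with or without the library labelled pancreas. The grouping with liver therefore did not hold for Mir215 in these libraries. At least 8-fold above the 15-tissue median were all 4 RefSeq members in small intestine, large intestine and kidney, and 3 of 4 in liver and in the library labelled pancreas, Mir215 being the exception in both, while 0 of 4 were in stomach. Over the 266 RefSeq features that passed the count minimum, that level was reached by 1.88% in small intestine, 3.76% in large intestine, 4.14% in kidney, 3.38% in liver, 4.51% in the library labelled pancreas and 0.752% in stomach.

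Together the 4 RefSeq members took 68.4% of all RefSeq miRNA reads in small intestine. The share was 25.8% in large intestine, 26.5% in liver, 26.9% in the library labelled pancreas and 12.8% in kidney. It was 1.39% in stomach and between 0.138% (skeletal muscle) and 0.467% (brain 3) in the other tissue libraries. In serum the members took 15.7%, 6.84% and 8.70% of the reads.

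**Figure D3:**
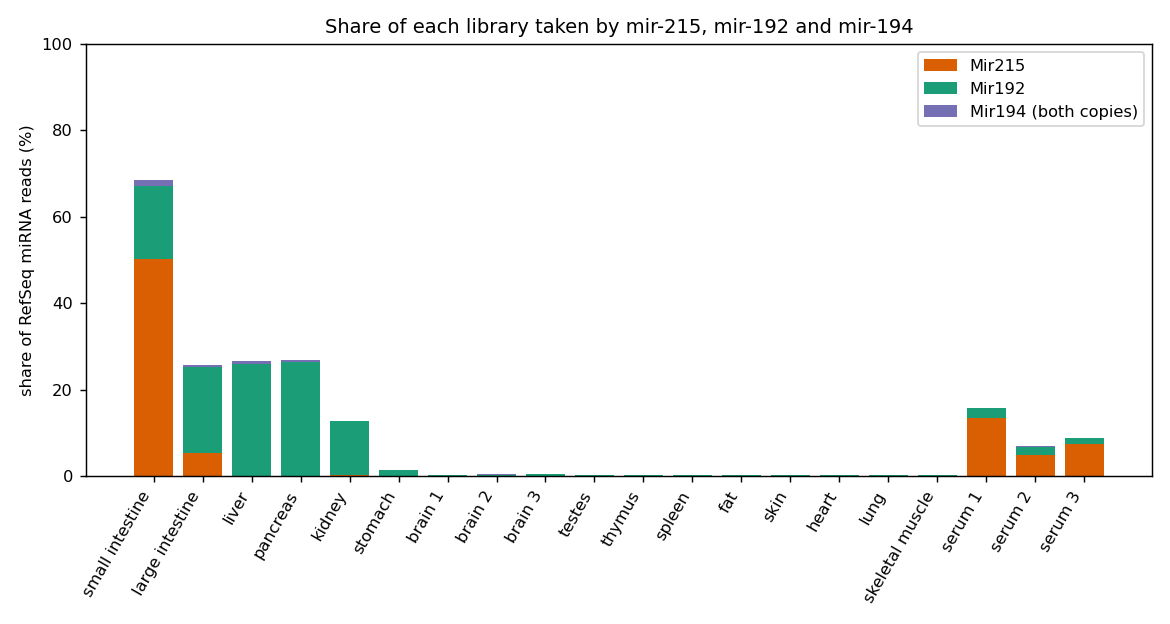
Share of RefSeq miRNA reads, in percent, taken by Mir215, Mir192 and both Mir194 copies, stacked for each of the 20 libraries. The stack reaches 68.4% in small intestine, where most of it is Mir215, 26.5% in liver, where nearly all of it is Mir192, and 6.84% to 15.7% in serum, again mostly Mir215.

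The share of Mir215 within the shared-seed pair followed the intestine and serum. Of the Mir192 and Mir215 reads together, Mir215 made up 75.0% in small intestine, 21.5% in large intestine and 1.73% in kidney. It made up 0.0307% in liver (0.0204 to 0.0460%) and 0.0299% in the library labelled pancreas. Heart (20.2%), fat (11.8%), skeletal muscle (7.32%), skin (4.35%), testes (2.87%) and thymus (2.87%) had higher shares than kidney, at far lower levels of both miRNAs. In brain the share was 0.144%, 0.157% and 0.232%, and in serum it was 85.1%, 72.0% and 85.4% (80.8 ± 7.65%, SD, n = 3). The serum and brain values did not overlap, and the two-sided exact permutation test gave p = 0.1, the smallest that 3 libraries against 3 allow.

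**Figure D4:**
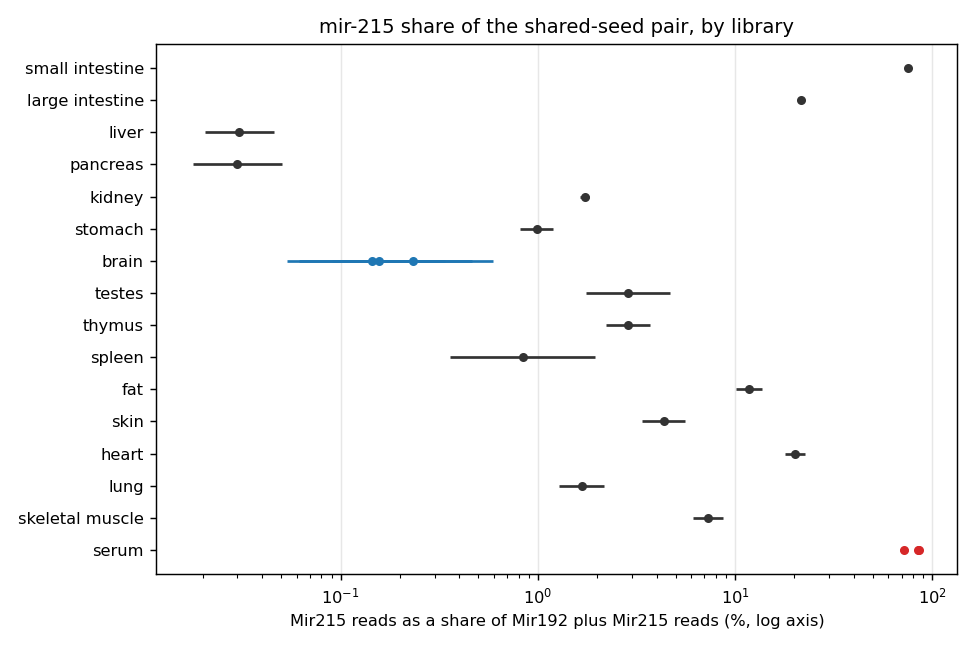
Mir215 reads as a percentage of Mir192 plus Mir215 reads in each library, on a log axis; dots are libraries (blue brain, red serum, dark grey pools) and lines are Wilson 95% intervals. The 3 serum libraries (72.0% to 85.4%) lie next to small intestine at 75.0%, and liver and the library labelled pancreas are lowest, at 0.0307% and 0.0299%.

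Brain against serum was the comparison with replicates. In serum mir-192 stood at 25807, 19333 and 12989 RPM, from 195, 210 and 103 reads, and its mean was 5.47-fold that of brain (19376 ± 6409 against 3545 ± 799 RPM, SD, n = 3 each). The lowest serum library was 2.93-fold above the highest brain library. In edgeR's quasi-likelihood test with TMM scaling and Benjamini-Hochberg adjustment, mir-192 was lower in brain by a log2 fold change of -2.56 (SE 0.36, adjusted p = 5.29e-05). The RefSeq feature gave -2.61 (SE 0.36, adjusted p = 7.60e-05). Of the 235 precursors tested, 18.7% were lower in brain and 44.7% higher, with a median log2 fold change of 2.15 (brain over serum). Serum libraries were far shallower, so a precursor could pass the count minimum through brain alone, and these shares depend on that filter. With the minimum required in every library, 26 precursors were higher in brain and 20 lower. There mir-192 stayed lower in brain, at -1.41 (adjusted p = 2.37e-05 by edgeR). The direction of mir-192 is therefore not set against that of the other precursors.

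The mature arm gave the same direction. miR-192-5p stood at 2938, 3440 and 4562 RPM of mature reads in brain and at 20872, 12817 and 11056 RPM in serum, so the groups did not overlap. Its log2 fold change was -1.51 (SE 0.41, adjusted p = 0.00137 by edgeR), where 14.2% of 212 mature miRNAs were lower in brain and 52.8% higher, and the median was 3.86. Testing only the miRNAs with at least 10 reads in every library gave -0.56 (adjusted p = 0.118).

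Mir215 showed a far larger difference. Its serum libraries held 1117, 540 and 601 reads, or 133676, 49095 and 74152 RPM, and it ranked 1, 6 and 3 among the 388 RefSeq features there. The brain libraries held 5, 3 and 4 reads. Pooled over the libraries of a group, serum stood at 82229 RPM (79038 to 85537) and brain at 5.71 RPM (3.27 to 9.99). The edgeR log2 fold change was -14.03 (SE 0.64, adjusted p = 2.03e-08), where 19.1% of the RefSeq features tested were lower in brain and 45.6% higher. Mir215 passed the minimum of 10 reads in 3 libraries through serum alone, so it had to differ to be tested, and the size of the fold change depends on the few brain reads. The difference is therefore carried by the read counts and their intervals rather than by the call.

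Serum and brain were also set beside the marker miRNAs of other tissues. Hepatocyte mir-122 stood at 21175, 142147 and 10340 RPM in serum 1, 2 and 3, so it was highest in serum 2, whereas mir-192 and Mir215 were both highest in serum 1. The erythroid list, of which 2 of 3 were listed (mir-451 and mir-144), summed to 2210 to 4288 RPM in serum. The leukocyte list (mir-142, mir-150, mir-223 and mir-155) summed to 7181 to 14029 RPM, and the smooth muscle pair mir-143 and mir-145 to 29887 to 52569 RPM. The epithelial mir-200 family summed to 92.1 to 252 RPM in serum, below the floor of each of those libraries, with mir-200a, mir-200b and mir-429 at 0 reads. The part of any of these cell types in the serum levels of the members was not tested.

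mir-194 could not be separated between brain and serum at this depth. The copies together had 150, 79 and 44 reads in brain but 0, 2 and 1 in serum, where 3.30 reads would be expected over the 3 libraries at the mean brain level. The log2 fold changes were 0.60 for mir-194-1 (SE 1.45, adjusted p = 0.705 by edgeR) and -0.47 for mir-194-2 (SE 1.17, adjusted p = 0.713). In serum the mir-194 reads were 3 against 508 of mir-192, a share of 0.587% of both (0.200 to 1.71%), while in brain they were 273 of 7354, or 3.71% (3.30 to 4.17%). Per library the share was 0, 0.943% and 0.962% in serum and 4.16%, 3.98% and 2.50% in brain, and the exact two-sided permutation test gave p = 0.1, again the smallest possible.

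miR-194-5p, the mature strand, had 136, 71 and 39 reads in brain and 0 in each serum library, where 2.30 were expected at the mean brain level. It passed the count minimum through brain alone, so its edgeR call (higher in brain, adjusted p = 0.0250) is not support for a difference. The call was also lost with library totals in place of TMM (adjusted p = 0.0598) and with DESeq2 (0.141). It was lost too without brain 3 (0.0693), serum 1 (0.0511), serum 2 (0.0684) or serum 3 (0.0736). The pooled serum floor of 173 RPM lay above the brain mean of 132.9 ± 13.6 RPM (SD, n = 3).

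The mature list allowed the arms to be compared. Of all miR-192 mature reads, 30 of 874543 were the 3p arm, 20 of them in large intestine and 7 in small intestine. Large intestine held 592489 of those mature reads. Its 3p share was 0.00338%, against 0.00600% in small intestine and 0.00343% over all 20 libraries. Of all miR-194 mature reads, 30 of 26630 were the 3p arm, 24 of them in large intestine and 4 in small intestine. Large intestine held 16754 of those, and the 3p shares were 0.143%, 0.0644% and 0.113% in the same order. RefSeq annotates a miR-194-3p on Mir194-2 only, so 3p reads from Mir194-1 would not be listed under that name. In brain the 3p arm was 0 of 6160 reads for miR-192, which allows a share of up to 0.0487%.

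Not every precursor read was counted on a mature arm. For mir-192 the mature arms held 86.6 to 87.7% of precursor reads in brain, 66.6 to 82.8% in the pools and 52.3%, 42.9% and 58.3% in serum. Over all miRNAs these shares were 84.3 to 85.1% in brain, 60.3 to 87.8% in the pools and 64.6 to 68.4% in serum. The serum and brain shares of mir-192 did not overlap (two-sided exact permutation test, p = 0.1, the smallest possible). Small intestine was the lowest tissue for mir-194, where only 50.7% of the precursor reads (49.8 to 51.6%) fell on the arms, although mir-192 held 76.8% in the same library. In large intestine 78.8% of the mir-194 reads did so, in stomach 85.5%, in liver 84.0%, in the library labelled pancreas 87.0% and in kidney 91.3%. Skeletal muscle (63.3% of 49 reads, 49.3 to 75.3%) and testes (75.0% of 16 reads, 50.5 to 89.8%) had intervals that overlapped that of small intestine.

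**Figure D5:**
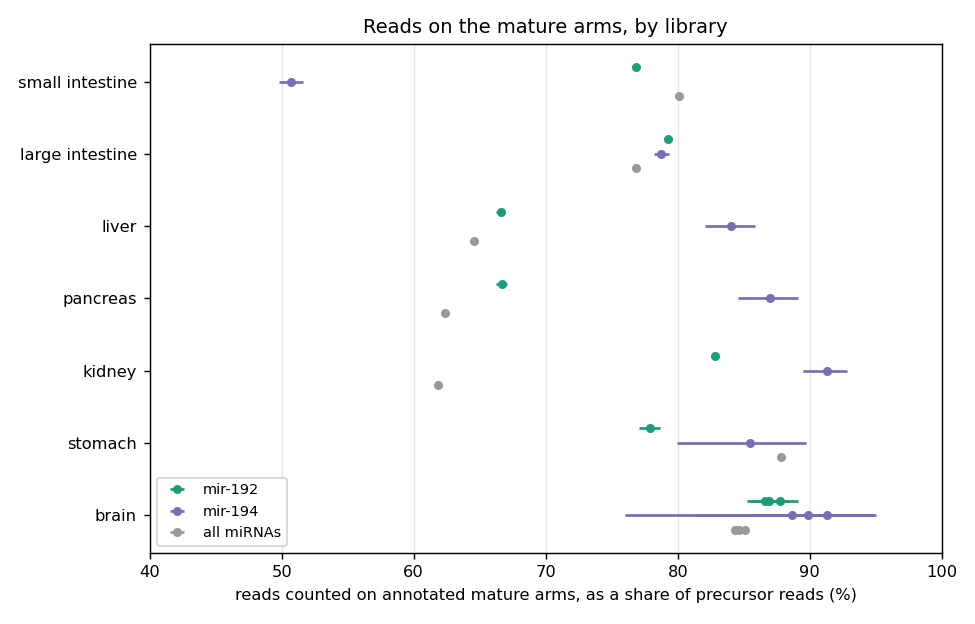
Reads counted on annotated mature arms as a percentage of precursor reads, for mir-192, for mir-194 and for all miRNAs, in 6 pools and the 3 brain libraries; dots are libraries, lines are Wilson 95% intervals, and the axis starts at 40%. mir-194 in small intestine lies at 50.7%, below the other pools shown, which range from 78.8% to 91.3%.

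The miRNAs most like mir-192 across the 15 tissues were ranked by Pearson's r of log2(RPM + 1). The mir-194 copies gave r = 0.98 and r = 0.99. Among 292 other precursors, whose median r was -0.32, the 5 highest were mir-802 (0.888), mir-3559 (0.640), mir-200b (0.605), mir-21 (0.598) and mir-200a (0.496). mir-802 was highest in libraries of the high set, at 1021 RPM in the library labelled pancreas, 1018 in liver and 241 in small intestine. mir-200b and mir-200a are epithelial miRNAs that restrain the Zeb transcription factors, and both were highest in large intestine, at 4624 and 2218 RPM. mir-3559 and mir-21 were both highest in the library labelled pancreas, at 248 and 74472 RPM. Without that library r was 0.566 for mir-3559 and 0.511 for mir-21, which was then no longer among the 5 highest, while mir-802 (0.877), mir-200b (0.621) and mir-200a (0.521) were. The points are libraries of different depth from the same 3 rats, so these values are descriptions with no test.

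For Mir215 the likeness was weaker. Over 262 other RefSeq features the highest were Mir147 (0.525), Mir145 (0.432), Mir200c (0.377), Mir200b (0.376) and Mir802 (0.354), with a median of -0.35. Its neighbour Mir194-1 gave 0.644, the distant copy Mir194-2 gave 0.641 and its seed partner Mir192 gave 0.569. Without the library labelled pancreas these were 0.734, 0.734 and 0.676. The 5 highest other features were then the same in another order. They were Mir147 (0.519), Mir802 (0.505), Mir145 (0.422), Mir200b (0.392) and Mir200c (0.363). Because the copies share their mature strand, the values of Mir194-1 and Mir194-2 are not independent of each other.

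The mir-200 family and a list of miRNAs that p53 is known to raise were set beside the members. All 5 of the mir-200 family were highest in an intestinal library, mir-200c at 218 RPM in small intestine and the others at 2218 to 5206 RPM in large intestine. Between brain and serum 4 of its 5 were tested and 4 were higher in brain by edgeR, against 44.7% of all precursors. mir-200a, mir-200b and mir-429 had 0 serum reads and passed the count minimum through brain alone, so the filter largely fixed their direction and nothing is read from the count. mir-141, at a mean of 993 RPM in brain and 117 RPM in serum, had a log2 fold change of 2.98 (SE 0.46, adjusted p = 0.000109 by edgeR). Its serum level was below the floor of each serum library. It too passed the count minimum through brain alone, so nothing is read from its call. Of the p53 list, 7 of 8 were listed and all 7 were tested. mir-34a, mir-34c and mir-107 were higher in brain, while mir-145 (log2 fold change -3.31, SE 0.55, adjusted p = 0.000203) and mir-16 (-1.92, SE 0.22, adjusted p = 1.10e-05) were lower, as mir-192 was. Over all precursors 44.7% were higher and 18.7% lower, so the 3 and 2 of 7 are not a result about the list. mir-34a and mir-107 had 0 serum reads. mir-34c, at a serum mean of 168 RPM, had reads in serum 3 only, fewer than the count minimum. All 3 passed that minimum through brain alone, so nothing is read from their calls. The highest tissues of the p53 list were spread, with mir-34c at 116708 RPM in testes, mir-143 at 611902 RPM in stomach and mir-16 at 40187 RPM in thymus.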

How the data were processed

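Per the labels, the submitters' processing notes and the study's methods, small-RNA libraries (TruSeq) were sequenced on a MiSeq, bases under phred 20 were trimmed, and reads were aligned with Bowtie to Rn5 and quantified in Partek Flow against miRBase 21 and RefSeq. The values the authors deposited are expected counts from that quantification, not normalized, with 388 RefSeq, 444 precursor and 577 mature features stacked in each table. Members and lists were chosen with earlier results of these data known. The text names the members and their arms, the 5 features most like mir-192 and Mir215 among those with at least 10 reads in at least 3 libraries, and the fixed lists (mir-200 family, p53-raised miRNAs, and marker lists of hepatocyte, pancreas, striated and smooth muscle, neuron, leukocyte, erythroid, ciliated and germ cell, and stratified epithelium).

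Counts were divided by the total of their own annotation. Brain and serum were compared with edgeR 4.0.16 (TMM, quasi-likelihood, Benjamini-Hochberg threshold 0.05) on counts rounded to whole numbers, with DESeq2 1.42.0 as an alternative, in R 4.3.3. The SE printed with an edgeR log2 fold change is not an edgeR output. It is the absolute log2 fold change divided by the square root of the test's F statistic. Tested features had 10 or more counts in 3 or more brain or serum libraries. On simulated data with 60 features changed 8-fold, the edgeR test recovered 80.8%, 82.2% and 72.7% of them for precursors, RefSeq and mature features. Of its calls there, 4.72%, 4.46% and 3.75% were false. The simulated levels were averages over brain and serum, changed in random directions, so these rates need not hold for the real comparison. Brain and serum share replicate numbers in the labels, but no source used here says that a number marks the same rat, so the libraries were not paired. Other choices tried were the pseudocount, the count minimum, the total, leaving out each replicate, leaving out the pancreas-labelled pool and the replicate block; other totals were added after the data were seen.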

Additional observations from a re-analysis of the deposited data

How the results depend on the processing

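The gap of the 4 named tissues over the rest (log2) for mir-192 was -0.99 with TMM, -0.91 with DESeq2 size factors, -1.09 with the RefSeq total, -1.14 with the members left out of the total and 3.23 without the library labelled pancreas. For mir-194 it was -1.33 with the RefSeq total, -1.38 with the members left out and 2.89 without that library. Of the 5 miRNAs most like mir-192, 3 stayed among the top 5 with TMM, and of those most like Mir215, 3 did with TMM and with DESeq2 size factors. The mir-194 to mir-192 ratio in small intestine was 5.32% on the mature arms. The 3p share of miR-194 in brain ranged from 0 to 0.568% when each brain library was left out, from 1 read in all. Requiring at least 10 reads in every library tested fewer features and left 26 precursors higher and 20 lower in brain, 24 and 18 RefSeq features, and 14 and 12 mature miRNAs. Leaving out each library gave 93 to 102 and 40 to 44 precursors, 86 to 100 and 37 to 40 RefSeq features, and 83 to 115 and 27 to 31 mature miRNAs.

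The uncalled mir-194 copies turned direction. Without a count minimum mir-194-2 gave 0.089, and without serum 2 it gave 7.77 by both annotations while Mir194-1 gave -0.068; leaving out each library gave mir-194-2 a range of -1.13 to 7.77 (Mir194-2 -1.17 to 7.77) and Mir194-1 -0.068 to 7.82. Over all alternatives run for it, the precursor mir-192 stayed between -2.94 and -1.41 (highest adjusted p 0.00195). The RefSeq feature Mir192 stayed between -2.996 and -1.291 (highest adjusted p 0.00113). The mature arm miR-192-5p ranged from -2.026 to -0.565 with a highest adjusted p of 0.118, so its call was not kept under every alternative. Mir215 stayed between -14.41 and -13.43 (highest adjusted p 3.23e-06). It has no value with at least 10 reads in every library because its brain counts are lower. With the replicate number as a block, 97 precursors were higher and 44 lower in brain, 89 and 39 RefSeq features, and 95 and 30 mature miRNAs, and among the members it changed the call of miR-194-5p only (adjusted p = 0.0589). The deviations of same-numbered libraries over 75 precursors correlated at 0.17, -0.06 and -0.21, and 1 of the 3 brain libraries correlated best with the serum library of its own number, so the numbers were not taken to pair the samples. Serum depth, 7556 to 10862 precursor reads, limits every statement on mir-194 in serum, and single pools leave the spread between animals unknown.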

Other observations

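Outside the intestine and kidney, Mir215 was not uniform. Heart held 211 reads (385 RPM, 337 to 441) and fat stood at 311 RPM (263 to 366), and both intervals lay above that of stomach (135 RPM, 111 to 163). Brain, with 12 reads in its 3 libraries together, lay at 5.71 RPM (3.27 to 9.99). Mir192 did not share this order, since heart (1523 RPM) and fat (2325 RPM of RefSeq reads) were below brain (3649 RPM). Each pool was a single library, so these differences have no replicate check.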
